A study of Mus musculus with 7 samples.

Results

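Pericyte and smooth muscle nuclei, together called mural nuclei below, were picked out of single-nucleus RNA sequencing of mouse small cell lung cancer, and 119 of 38254 kept nuclei (0.311%) met the rule. A nucleus counted as mural when at least 3 of the 8 genes Pdgfrb, Notch3, Gucy1a1, Cspg4, Myh11, Acta2, Tagln and Rgs5 had a count. The summed counts of these genes also had to reach 0.15% of the transcripts of the nucleus and to exceed the sum of 7 fibroblast genes (Col1a1, Col1a2, Col3a1, Pdgfra, Dcn, Lum and Col13a1). These 15 genes chose the nuclei, so their levels are given as a description only.

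The tumors came from 4 male mice, 2 RP and 2 RPC, and each animal is 1 replicate. RP mice carried Rb1 fl/fl and Trp53 fl/fl alleles. RPC mice carried the same alleles together with loss of Casp8, which encodes caspase 8, written Casp8-/- in the labels and described by the study as a conditional allele. All received adenoviral Cre by inhalation at 8 to 12 weeks of age, and tumors were taken at endpoint. The Cre was driven by a general viral promoter and delivered through the airway, so whether the mural cells themselves had recombined was not tested. Nuclei of all 4 animals were barcoded in wells, pooled and sequenced in 7 libraries. No barcode was shared between animals.

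Mural cells wrap the outside of blood vessels. Pericytes sit along capillaries inside the basement membrane they share with the endothelium, and depend on PDGF-B signalling through the receptor Pdgfrb. Smooth muscle cells form the contractile layer of arteries, veins and airways and carry smooth muscle myosin (Myh11) and actin (Acta2). In both, contraction is driven by calcium entry and myosin phosphorylation, and relaxation by cyclic GMP made by the soluble guanylate cyclase, of which Gucy1a1 is a subunit.

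Values per animal are listed throughout in the order RP1, RP2, RPC1, RPC2. Mural nuclei numbered 31, 24, 33 and 31, out of 8363, 8874, 10853 and 10164 kept nuclei. These were shares of 0.371% (exact Clopper-Pearson 95% interval 0.252 to 0.526), 0.270% (0.173 to 0.402), 0.304% (0.209 to 0.427) and 0.305% (0.207 to 0.433). The mean was 0.321% ± 0.0709 in RP and 0.305% ± 0.000661 in RPC (SD, n = 2 animals each). RPC lay inside the range of RP, and the difference of -0.0160 percentage points was smaller than the spread between the RP animals (two-sided exact permutation p = 1.0; the smallest p that 2 against 2 animals allow is 0.333). The sign of this difference turned when the marker share was raised to 0.3% (0.00948 points) and when RP1 was left out (0.0341 points). Of mural plus endothelial-gated nuclei, 33.0%, 19.2%, 30.8% and 20.3% were mural, and the genotypes overlapped. In shares of nuclei, fewer mural cells and more of another kind cannot be told apart. Intervals here cover counting error only.

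The nuclei were shallow. The median mural nucleus held 3160, 2517, 4382 and 2735 transcripts, beside 2255, 2223, 3392 and 2767 over all kept nuclei. Summed over an animal, mural nuclei held 157695, 108148, 190088 and 108445 transcripts, so 3 counts, taken as the limit that a count of 0 allows, correspond to 19.0, 27.7, 15.8 and 27.7 counts per 1000000 transcripts (CPM). The median mural nucleus showed 4 of the 8 genes, and 37 of 119 showed exactly 3. The lowest marker shares inside the threshold were 0.153%, 0.174% and 0.178%, and the highest outside it, among nuclei that met the other conditions, were 0.148%, 0.145% and 0.142%. A further 90 nuclei failed on this share alone and 30 on the fibroblast sum alone.

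For comparison, nuclei were gated in the same way for fibroblast genes (44, 67, 32 and 25 nuclei) and for 8 endothelial genes (63, 101, 74 and 122 nuclei). All other kept nuclei, called nuclei in no gate, were not divided further. Calca, which encodes a peptide of pulmonary neuroendocrine cells, had a count in 62.4% to 90.5% of them by animal and in 61 of 119 mural nuclei. A count of it was therefore not used to mark tumor nuclei. Levels below are CPM on counts summed per animal and class, and they compare the same gene between classes or animals, never 1 gene with another.

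Notch3, the Notch receptor of mural cells, was the most widely detected of the 8 genes, with a count in 107 of 119 nuclei. Its level was 983, 1313, 1110 and 1097 CPM, with no separation of the genotypes. Pdgfrb was detected in 103 nuclei at 590, 693, 1284 and 802 CPM, at least 99.2 times its level in nuclei in no gate of the same animal. It was higher in both RPC animals than in both RP animals, though the counting intervals of RP2 and RPC2 overlapped. Rgs5, a regulator of G protein signalling used as a pericyte marker, was seen in 69 nuclei at 748, 314, 584 and 821 CPM.

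Gucy1a1 was at 171, 194, 500 and 397 CPM and had a count in 10, 13, 28 and 17 mural nuclei. Both RPC animals lay above both RP animals. Cspg4, the NG2 proteoglycan, was at 203, 296, 247 and 129 CPM with no separation of the genotypes. No test is given for these genes, since they chose the nuclei.

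Smooth muscle genes differed widely between animals. Myh11 was at 552, 342, 137 and 682 CPM, with exact 95% counting intervals of 442 to 680, 241 to 472, 89.4 to 200 and 536 to 857. Acta2 was at 380, 490, 78.9 and 397 CPM. RPC1 was therefore the low animal for both, and RPC2 was not. Tagln, the actin-binding protein transgelin, varied less, at 88.8, 129, 63.1 and 92.2 CPM.

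**Figure D1:**
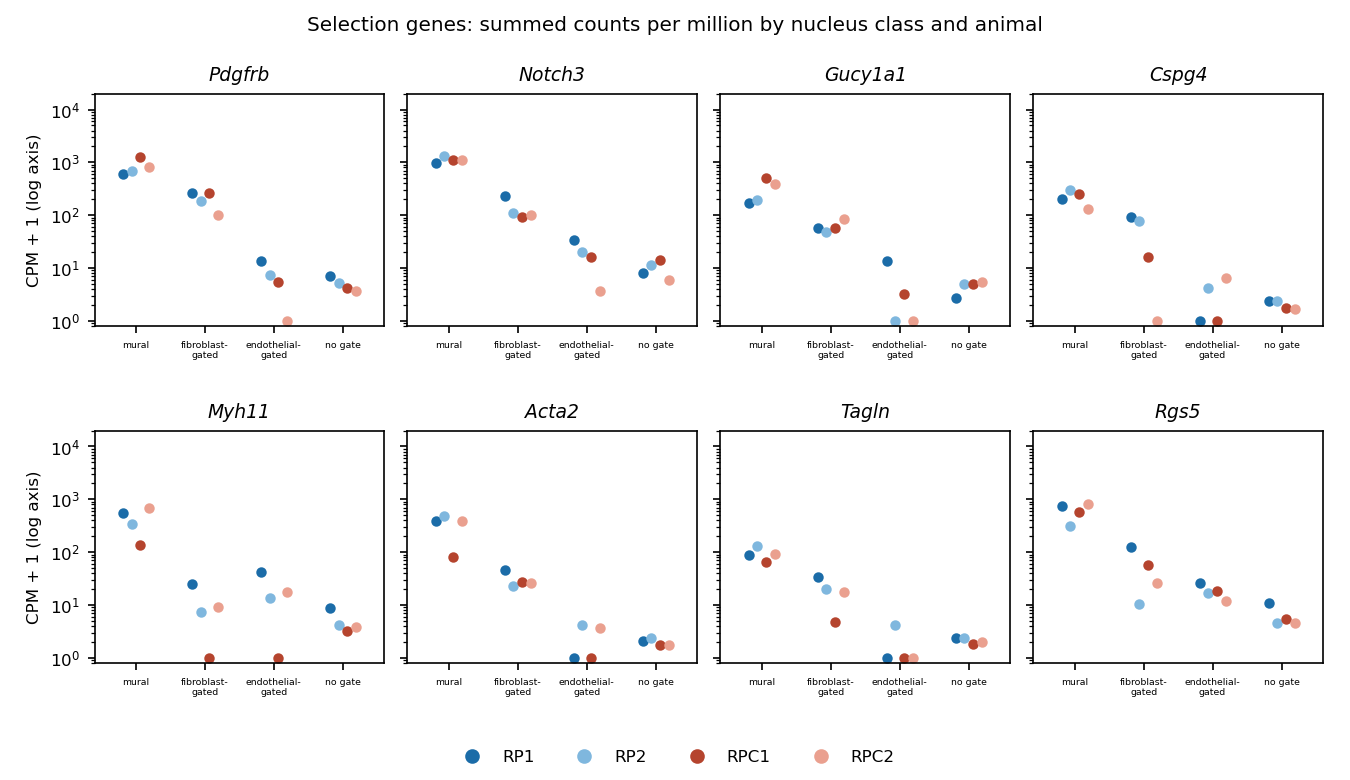
Level of each of the 8 selection genes as CPM + 1 on a log axis, by class of nuclei (x axis) and animal (color); each point is 1 animal's summed counts. In every panel the 4 mural points stand above the 4 points of nuclei in no gate, which follows from the selection, and RPC1 is the lowest mural point for Myh11 and Acta2.

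The fibroblast genes of the rule were not absent. Col1a1 was at 628, 231, 374 and 231 CPM and Col1a2 at 387, 462, 626 and 332 CPM in mural nuclei, below the fibroblast-gated nuclei of the same animal throughout. Pdgfra, the receptor that defines lung fibroblasts, was at 25.4 to 55.5 CPM beside a mean of 652 CPM in fibroblast-gated nuclei. Dcn and Lum had no count in any mural nucleus, and neither did the fibroblast markers Tcf21 and Pi16, which the rule did not use. The other fibroblast markers outside the rule, Slit2, Mfap5, Npnt and Fbln1, did have counts. Together these 6 markers summed to 108, 546, 337 and 304 CPM in mural nuclei. They summed to 566, 1040, 948 and 2096 CPM in fibroblast-gated nuclei and to 29.7 to 36.9 CPM in nuclei in no gate.

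Markers of other cell types were checked as well. Of 12 macrophage markers, Marco and Siglecf had no count, and the list summed to 111 to 178 CPM in mural nuclei and 89.9 to 157 CPM in nuclei in no gate. T cell genes Cd3e and Cd3d and B cell genes Cd79a, Ms4a1 and Bank1 had no count. Mesothelial markers Wt1, Msln, Upk3b and Lrrn4 also had none. Of the 12 lymphocyte markers, 6 had no count, and Ebf1, Skap1, Cd247 and Themis were the highest. The list summed to 1387 to 2283 CPM in mural nuclei and 845 to 1306 CPM in nuclei in no gate. Ebf1, which is also in the pericyte list, made up most of the mural sum in each animal. It was the only 1 of the 12 above nuclei in no gate in every animal, and 7 were below in every animal. Lung epithelium was represented by 9 markers each of type 2, type 1 and airway cells, which summed to 111 to 171, 101 to 216 and 38.0 to 175 CPM in mural nuclei and 176 to 306, 216 to 267 and 71.1 to 228 CPM in nuclei in no gate.

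Tumor transcripts were present. The 14 neuroendocrine markers summed to 2657, 1738, 2594 and 3449 CPM in mural nuclei, which was 58.4%, 46.4%, 49.0% and 60.2% of their level in nuclei in no gate. The 20 cell cycle genes summed to 48.4%, 60.1%, 52.5% and 55.5% of that level. Mki67, a marker of cycling cells, had a count in 68 of 119 mural nuclei at 400, 370, 500 and 830 CPM, beside a mean of 890 CPM in nuclei in no gate. Tumor and cell cycle genes thus stood in a like proportion to nuclei in no gate, and how much of either came from the mural cells themselves was not tested.

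Outside the rule, the genes with the highest ratio of mural to no-gate CPM in the least favourable animal were Carmn, Trpc6, Slit3, Prkg1, Pde3a, Itga1, Arhgap42, Csmd1, Lhfp and Adamts2, taken from 786 genes with at least 20 counts in the mural nuclei of every animal. These values describe the same contrast as the rule and carry no test. Carmn, a long noncoding RNA of smooth muscle next to a microRNA gene cluster, was at 723, 620, 405 and 544 CPM in mural nuclei. Its level was at least 187 times that in nuclei in no gate, and it had a count in 76.5% of mural nuclei. Carmn was also above fibroblast-gated nuclei in each animal (155, 107, 79.7 and 90.4 CPM there).

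Trpc6, a diacylglycerol-gated calcium channel, was at 380, 435, 947 and 821 CPM in mural nuclei and at 32.6, 31.4, 26.6 and 57.5 CPM in fibroblast-gated nuclei. It separated the stromal classes more widely than any other of the 10 genes. Slit3, a secreted guidance cue, did not separate them: it was at 1699, 2617, 2462 and 1826 CPM in mural and 1628, 1857, 1476 and 2260 CPM in fibroblast-gated nuclei, and RPC2 turned the order.

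Prkg1, the cyclic GMP-dependent kinase that relaxes smooth muscle, was at 2004, 2682, 3451 and 2932 CPM, above fibroblast-gated nuclei (863, 1037, 1639 and 1726) and far above nuclei in no gate (mean 21.0). Pde3a, a phosphodiesterase that breaks down cyclic AMP and is held back by cyclic GMP, was at 1053, 878, 721 and 765 CPM. Arhgap42, a GTPase-activating protein of vascular smooth muscle, was at 476, 758, 705 and 821 CPM beside a mean of 5.27 CPM in nuclei in no gate. Itga1, the collagen and laminin receptor subunit alpha 1, was at 850, 758, 1147 and 802 CPM. These 4 genes were above fibroblast-gated nuclei in each animal. Csmd1, a large transmembrane complement regulator, was at 2048, 3366, 7044 and 3698 CPM and at 2573, 999, 2341 and 1167 CPM in fibroblast-gated nuclei, so RP1 turned the order.

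**Figure D2:**
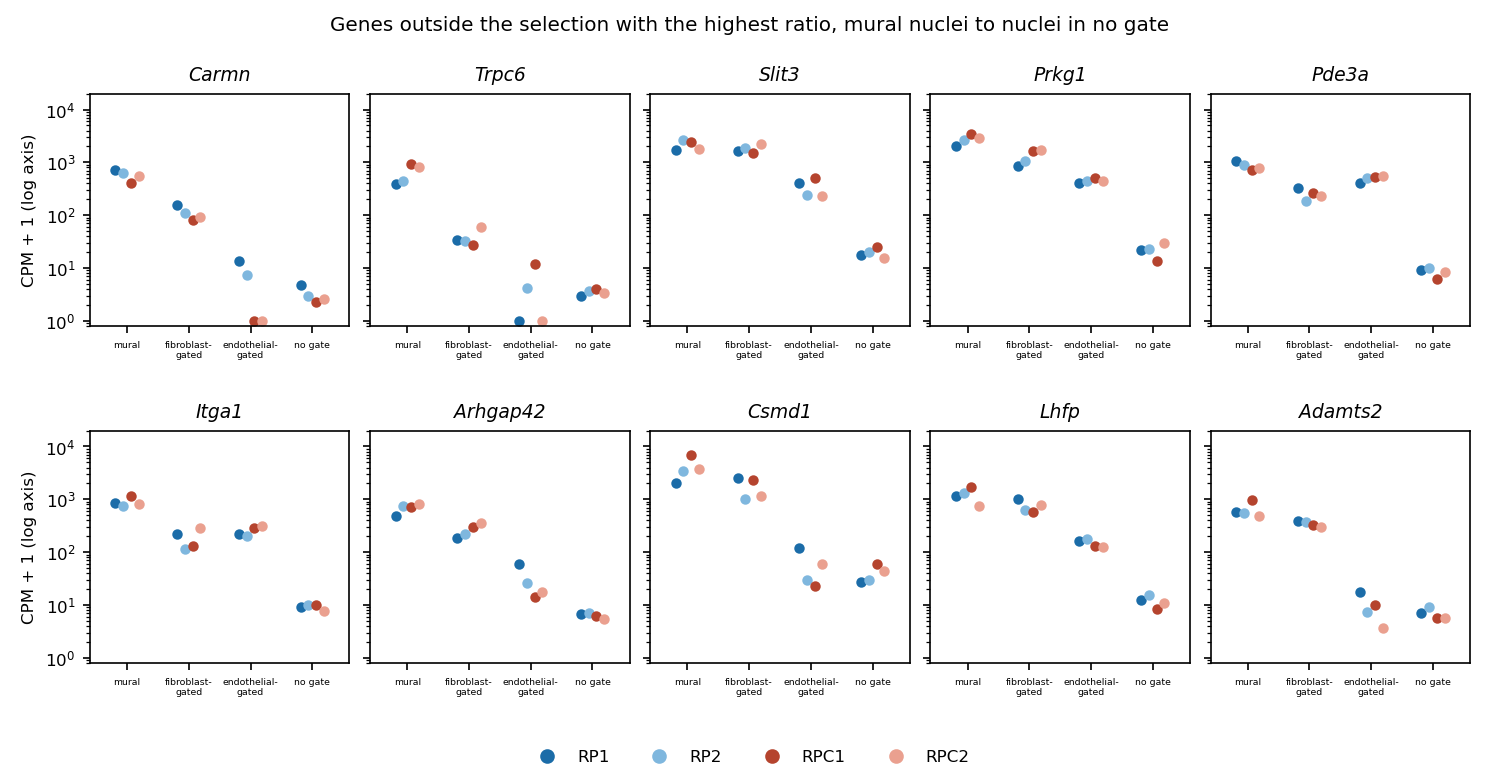
The 10 genes outside the selection with the highest mural to no-gate ratio, plotted as CPM + 1 on a log axis by class of nuclei, with 1 point per animal. Trpc6 and Carmn keep the mural points clear of the fibroblast-gated points in all 4 animals, while Slit3 shows them overlapping.

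Of the 30 further pericyte genes listed, 15 were above nuclei in no gate in all 4 animals and 14 above endothelial-gated nuclei. Over the 5511 genes with at least 20 mural counts the shares were 20.7% and 15.1%. Because the nuclei were chosen on this contrast, nothing is read from these counts.

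Ebf1, a transcription factor known from B cells that pericytes also carry, was at 1446, 906, 1457 and 1503 CPM in mural nuclei and at a mean of 21.0 CPM in nuclei in no gate. Abcc9, the regulatory subunit of the vascular ATP-sensitive potassium channel, was at 400, 176, 174 and 369 CPM. Its partner channel Kcnj8 had a count in 3 nuclei only. Higd1b, a widely used lung pericyte marker, had a count in 6, Cox4i2 in 10 and Ndufa4l2 in 4 nuclei. Vtn, a marker of brain pericytes, had none. At this depth a low level of such genes could not be told from none.

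Flt1, the VEGF receptor 1 usually read as endothelial, was detected in 58 of 119 mural nuclei at 590, 462, 821 and 350 CPM. Its mean was 12.2 CPM in nuclei in no gate and 1971 CPM in endothelial-gated nuclei. The other endothelial genes were mixed. Pecam1, the endothelial junction protein CD31, was at 50.7, 92.5, 5.26 and 55.3 CPM in mural nuclei and 633 to 930 CPM in endothelial-gated nuclei. Cdh5, the endothelial cadherin, was at 19.0, 55.5, 0 and 27.7 CPM beside 323 to 434 CPM. Mecom, a transcriptional regulator, was at 482, 361, 316 and 203 CPM in mural nuclei, beside 804 to 927 CPM in endothelial-gated nuclei and 181 to 351 CPM in nuclei in no gate. Flt1 and Mecom together made up most of the summed level of the 13 endothelial markers in RP1, RPC1 and RPC2, and Erg is given further on.

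Mural nuclei held 93, 50, 156 and 38 counts of Flt1 beside 31, 46, 15 and 16 counts of the other 7 endothelial genes together. Endothelial-gated nuclei, chosen with these 8 genes, held 40.3 to 61.2 Flt1 counts for each 100 of the other 7. Among the 97 mural nuclei without any count of those 7 genes, 44 had Flt1, and its level there was 378, 410, 1034 and 347 CPM. Flt1 in mural nuclei was therefore measured also where no other endothelial gene of the gate was seen. Angpt1, the ligand that mural cells present to the endothelial receptor Tek, was at 88.8, 102, 105 and 277 CPM in mural nuclei, below fibroblast-gated nuclei (mean 452) and above endothelial-gated nuclei (mean 7.29). Epas1, the hypoxia-inducible factor 2 alpha, was at 216, 166, 226 and 231 CPM.

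Summed over their lists, matrix genes stood above nuclei in no gate in every animal. Col4a1, a chain of basement membrane collagen IV, was at 996, 730, 994 and 516 CPM in mural nuclei against a mean of 30.1 CPM in nuclei in no gate, and Col4a2 was at 831, 620, 726 and 609 CPM. The 18 basement membrane genes summed to 4154, 3560, 4082 and 3467 CPM. Their sums were 2841, 3469, 3517 and 3139 CPM in fibroblast-gated and 3901, 3076, 2436 and 1429 CPM in endothelial-gated nuclei. The 26 stromal matrix genes summed to 6773, 10763, 10085 and 8926 CPM in mural nuclei. In fibroblast-gated nuclei they summed to 7775, 9753, 12773 and 9697 CPM, higher in all animals but RP2. Fn1, fibronectin, was at 1243, 2737, 1520 and 1153 CPM. Eln, elastin of the vessel wall and alveolar entrance, was at 850, 1766, 1436 and 2490 CPM and stayed below fibroblast-gated nuclei of the same animal (mean 2704) in all 4.

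Most mural nuclei leaned to pericytes. In 106 of 119 the summed counts of Pdgfrb, Notch3, Gucy1a1, Cspg4 and Rgs5 exceeded those of Myh11, Acta2 and Tagln, and in 13 the smooth muscle sum was higher. Of the 106, 50 had no smooth muscle gene count at all. Smooth muscle-leaning nuclei numbered 2, 4, 1 and 6. These were shares of 6.45% (0.791 to 21.4), 16.7% (4.74 to 37.4), 3.03% (0.0767 to 15.8) and 19.4% (7.45 to 37.5). The mean was 11.6% ± 7.22 in RP and 11.2% ± 11.5 in RPC (SD, n = 2), a difference of -0.367 percentage points that is given with no test, since the selection genes set the split. The 2 RPC animals gave both the lowest and the highest share.

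**Figure D3:**
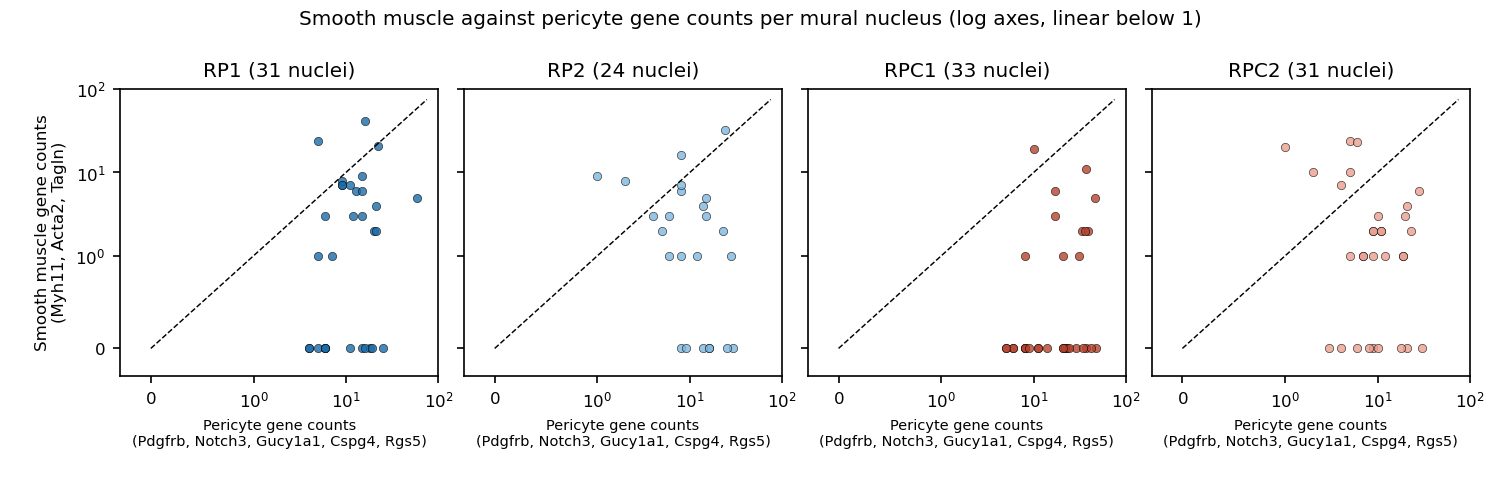
Summed counts of the 3 smooth muscle genes (y axis) against those of the 5 pericyte genes (x axis) in each mural nucleus, 1 panel per animal, log axes that are linear below 1; nuclei above the dashed line of equality lean to smooth muscle. Overlapping nuclei hide each other; 13 of the 119 lie above the line, 6 of them in RPC2 and 1 in RPC1.

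The 13 smooth muscle-leaning nuclei held 8383, 35065, 12949 and 17760 transcripts in the 4 animals, so single values carry large counting error. Dmd, dystrophin, was at 4294, 1540, 2008 and 6081 CPM in them and at 603, 930, 1056 and 1191 CPM in pericyte-leaning nuclei, higher in each animal. Lmod1, an actin nucleator of smooth muscle, was at 716, 143, 386 and 957 CPM against 161, 109, 45.2 and 44.1 CPM. Synpo2, an actin-bundling protein, and Itga8, the alpha 8 integrin, were also higher in all 4 animals (mean 498 against 53.0 CPM and 584 against 60.1 CPM). Myocd, the serum response factor coactivator of smooth muscle, was at 358, 428, 0 and 563 CPM against 33.5, 68.4, 50.8 and 77.2 CPM, so RPC1 went the other way. Toward pericytes, Ebf1, Trpc6, Abcc9, Adap2, Gucy1b1 and Egflam were higher in pericyte-leaning nuclei of every animal, and Itga1 in 2 of 4. The 30 listed pericyte genes summed to 6799, 1768, 1699 and 3941 CPM in smooth muscle-leaning nuclei. In pericyte-leaning nuclei they summed to 4735, 5254, 6543 and 6219 CPM, so RP1 went the other way. The 34 listed contractile genes summed higher in smooth muscle-leaning nuclei except in RPC1 (7800 against 7943 CPM). These genes were not part of the split, but the split was made on expression in the same nuclei and no test is given.

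Many contractile genes are driven by serum response factor, which binds the CArG box. The 250 bases before the RefSeq start (GRCm38.p6) were searched for CCNNNNNNGG with A or T in at least 5 of the 6 inner bases, a form that reads alike on both strands. The search found 1 or more matches for 7 of 29 contractile genes with a window (24.1%), for 2 of 18 pericyte genes (11.1%) and for 2643 of 27025 genes in all (9.78%). A match is a description and not a binding site. Acta2 and Myl9, the myosin light chain of smooth muscle, each held 2 matches, and 205 of all genes (0.759%) held 2 or more. Vcl, vinculin, held 1. These 3 are shown because Acta2 set the split and Myl9 and Vcl were higher on average in the smooth muscle-leaning nuclei (190 against 48.3 CPM, in 3 of 4 animals, and 677 against 324 CPM, in all 4). The matches begin 84 and 34 bases before the start in Acta2, 161 and 99 in Myl9 and 227 in Vcl. Capitals mark them, 5′ to 3′ on the strand of the gene: chr19:34255374-34255623 on the minus strand for Acta2, chr2:156775214-156775463 on the plus strand for Myl9 and chr14:20929148-20929397 on the plus strand for Vcl.
Acta2: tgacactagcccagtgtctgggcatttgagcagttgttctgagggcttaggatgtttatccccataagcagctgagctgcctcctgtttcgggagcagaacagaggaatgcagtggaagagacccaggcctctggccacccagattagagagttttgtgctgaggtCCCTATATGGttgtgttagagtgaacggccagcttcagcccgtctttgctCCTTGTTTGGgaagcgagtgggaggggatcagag
Myl9: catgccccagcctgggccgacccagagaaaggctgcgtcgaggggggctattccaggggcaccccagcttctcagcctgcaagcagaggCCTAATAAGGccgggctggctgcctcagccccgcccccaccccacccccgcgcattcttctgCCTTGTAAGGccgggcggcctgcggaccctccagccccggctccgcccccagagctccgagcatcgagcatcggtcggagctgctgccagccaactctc
Vcl: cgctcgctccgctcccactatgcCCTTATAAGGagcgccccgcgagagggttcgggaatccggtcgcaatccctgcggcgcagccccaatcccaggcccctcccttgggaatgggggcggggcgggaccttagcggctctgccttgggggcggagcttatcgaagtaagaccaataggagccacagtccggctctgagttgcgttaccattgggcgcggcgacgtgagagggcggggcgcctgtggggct

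The genotypes were then compared within mural nuclei, to ask whether loss of caspase 8 goes with another state of the mural cells. Casp8 itself had 13, 5, 18 and 10 counts, or 82.4, 46.2, 94.7 and 92.2 CPM, and was not lower in RPC (log2 fold change 0.34 ± 0.49 SE, adjusted p = 0.92, edgeR). Counts cover the whole gene, so a deleted stretch would not be seen in them. Rb1, floxed in all animals, was at 241, 240, 400 and 332 CPM, and Trp53 had 1 to 9 counts per animal and was too low to test.

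No gene passed an adjusted p of 0.05 in mural nuclei: edgeR called 0 of 3213 genes (0%), with a smallest adjusted p of 0.353. With no adjustment, 251 genes had a p under 0.05, 141 lower in RPC (4.39% of those tested) and 110 higher (3.42%). DESeq2 called 3 genes on the same sums, Frmpd4, Lars2 and Pabpc4, and edgeR without a filter on low counts called 45. Leaving out RP1, RP2, RPC1 or RPC2 gave 44, 59, 14 and 23 calls, in fits that assume the lone animal of a group varies like the other group. The values that follow are therefore measurements that did not pass the test.

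Among the genes that the naming rule took for their smallest p and separate genotypes, Arhgef6 was higher in mural nuclei than in nuclei in no gate in all 4 animals, whereas Corin, Frmpd4, Scaf11, Zc3h6, Pabpc4, Gm30835, Trit1 and Cap1 were not. Arhgef6, a Rac and Cdc42 exchange factor (ENSMUSG00000031133, GRCm39 chromosome X, 56276845 to 56384141), was at 120 and 102 CPM in RP1 and RP2 and at 379 and 461 CPM in RPC1 and RPC2. This was a log2 fold change of RPC over RP of 1.75 ± 0.35 SE (adjusted p = 0.453, edgeR). In nuclei in no gate it was at 5.76, 6.93, 8.49 and 11.1 CPM, where both RPC animals were also above both RP animals. The genotype difference in mural nuclei less that in nuclei in no gate was 1.25 ± 0.51 SE on the log2 scale and did not pass the adjusted threshold (adjusted p = 0.939, edgeR interaction). The rule for smallest p took 10 genes, Arhgef6 among them. Their genotype means went the same way in fibroblast-gated nuclei for all 10, in endothelial-gated nuclei for 9 and in nuclei in no gate for 9.

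Pabpc4, a poly(A)-binding protein, Cap1, which regulates actin turnover, and Trit1, a tRNA modification enzyme, lie within 440 kb of each other and of Mycl on chromosome 4. Pabpc4 was at 361, 203, 26.3 and 36.9 CPM in mural nuclei and at 528, 333, 24.1 and 35.4 CPM in nuclei in no gate. Cap1 was at 304, 268, 94.7 and 101 CPM and at 563, 411, 46.0 and 55.6 CPM. Trit1 was at 184, 148, 36.8 and 46.1 CPM and at 556, 377, 50.7 and 72.6 CPM. For all 3, both RP animals were above both RPC animals in either class. Mycl itself had 9, 5, 1 and 0 counts in mural nuclei.

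Frmpd4, a postsynaptic scaffold protein, was at 133, 222, 1052 and 811 CPM in mural nuclei and at 307, 476, 2224 and 1380 CPM in nuclei in no gate (log2 fold change 2.27 ± 0.38 SE in mural nuclei, adjusted p = 0.353 in edgeR and 0.0379 in DESeq2). Corin, a serine protease, had 1 and 0 counts in RP and 27 and 25 in RPC mural nuclei, and was at 22.6, 26.4, 359 and 195 CPM in nuclei in no gate. Gm30835 was at 165, 333, 15.8 and 36.9 CPM in mural and 314, 475, 9.51 and 13.0 CPM in nuclei in no gate. Zc3h6 and Scaf11 were higher in RPC in both classes as well. Tumor markers stood in mural nuclei at 46.4% to 60.2% of their level in nuclei in no gate, and their part in these differences was not tested.

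The interaction fit across 3213 genes called 1 gene (0.0311%) against nuclei in no gate, and 0 (0%) against fibroblast-gated and 0 (0%) against endothelial-gated nuclei, where 193 and 133 genes had an unadjusted p under 0.05 and DESeq2 also called 0. Against nuclei in no gate 154 genes had an unadjusted p under 0.05. The 1 gene called was Nhs (ENSMUSG00000059493, chromosome X, 160616292 to 160942726), whose protein acts on actin remodelling at the cell edge. Nhs was at 520, 1230, 579 and 452 CPM in mural nuclei and at 30.6, 64.0, 143 and 120 CPM in nuclei in no gate. Both RPC animals were above both RP animals in the latter and not in the former, and the log2 difference between the genotype differences was -2.23 ± 0.26 SE (adjusted p = 0.0158, edgeR). The call was lost with members of at least 0.3% marker share (adjusted p = 0.293) and of at least 4 markers (0.0906), and stood without any 1 animal and in DESeq2. Over these alternatives its adjusted p ran from 1.33e-07 to 0.293.

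**Figure D4:**
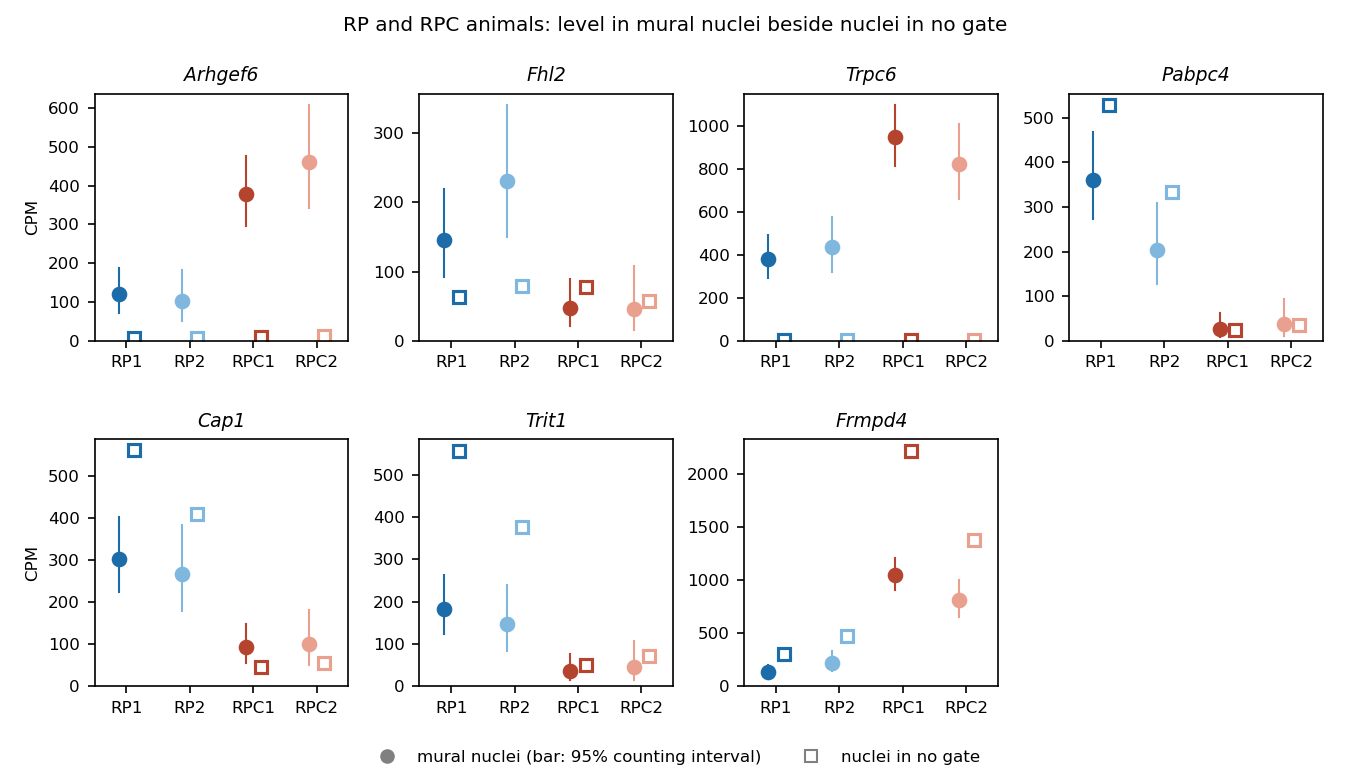
CPM of 7 genes by animal in mural nuclei (filled circles, bars are exact 95% counting intervals) and in nuclei in no gate (open squares), linear axes from 0. Arhgef6 and Trpc6 have mural points above the squares in each animal. For Pabpc4, Cap1, Trit1 and Frmpd4 both classes shift together between RP and RPC. Arhgef6 is higher in both RPC animals in nuclei in no gate too, at far lower levels.

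Lists of related genes were then read in the same fit, each beside the median of all 3213 genes, a log2 fold change of -0.01. No gene of the 14 lists was called. Of 34 contractile genes 21 were tested, 16 with a fold change below 0 and 5 above, and their median was -0.52. Unadjusted p under 0.05 was seen for 7 of the 21, all lower in RPC, where 4.39% of all genes were. The median difference between the genotype difference in mural nuclei and that in another class was smaller for these genes, at -0.15 against nuclei in no gate, -0.37 against fibroblast-gated and 0.07 against endothelial-gated nuclei. Actn1, alpha-actinin, was at 653, 1156, 395 and 433 CPM (log2 fold change -1.26 ± 0.38 SE, adjusted p = 0.472, edgeR). Flna, the actin crosslinker filamin A, was at 640, 1008, 253 and 443 CPM, and Tpm2, beta-tropomyosin, at 95.1, 111, 31.6 and 18.4 CPM; both were chosen after their values were seen. Dmd had its highest level in an RPC animal, at 799, 1128, 1121 and 1992 CPM.

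The contractile median depended on the animals. It was -0.12 without RPC1, the animal with 1 smooth muscle-leaning nucleus, and -0.97 without RPC2. In pericyte-leaning nuclei alone, an alternative chosen after seeing the data, it was -0.89 beside -0.52 over all mural nuclei.

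Genes of TGF-beta and YAP signalling had a median of -0.42 over 17 tested, 12 below and 5 above 0, and 3 with an unadjusted p under 0.05, all lower in RPC (4.39% of all genes). These included Ccn2, a matricellular target of YAP, at 171, 148, 10.5 and 83.0 CPM (log2 fold change -2.15 ± 0.71 SE, adjusted p = 0.502, edgeR). The median kept its sign without any 1 animal, from -0.67 to -0.26. The median difference from the genotype difference in other classes was -0.12 against nuclei in no gate, -0.32 against fibroblast-gated and 0.08 against endothelial-gated nuclei. Thbs1, thrombospondin 1, was at 209, 444, 73.7 and 111 CPM and Tnc, tenascin C, at 82.4, 148, 26.3 and 18.4 CPM, both from the matrix list. The median of that list over 19 genes was -0.21, and it was -1.26 without RPC1, 0.14 without RPC2 and 0.32 at a marker share of 0.3%, so its direction was not stable. Fhl2, a LIM protein that binds actin-regulated transcription factors, was at 146, 231, 47.3 and 46.1 CPM in mural nuclei and at 63.3, 79.4, 77.5 and 57.2 CPM in nuclei in no gate. Ccn2, Thbs1, Tnc and Fhl2 were chosen after their values were seen.

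Pericyte genes leaned the other way. Of 30 listed, 13 were tested with a median of 0.18, 9 above and 4 below 0, and 3 had an unadjusted p under 0.05, all higher in RPC (3.42% of all genes). They were Trpc6 (log2 fold change 0.98 ± 0.32 SE, adjusted p = 0.502, edgeR), Pde5a, the cyclic GMP phosphodiesterase, at 165, 250, 400 and 526 CPM, and Gucy1b1, the partner subunit of Gucy1a1, at 127, 166, 279 and 332 CPM, named after its values were seen. The median stayed above 0 without any 1 animal (0.19 to 0.58) and was 0.11 in pericyte-leaning nuclei alone. The median difference from the genotype difference in other classes was 0.74 against nuclei in no gate, 0.04 against fibroblast-gated and 0.11 against endothelial-gated nuclei. Of the pericyte genes that chose the nuclei, Pdgfrb and Gucy1a1 were also higher in both RPC animals, whereas Notch3, Cspg4 and Rgs5 did not separate the genotypes. The part of the selection in the lean of the listed pericyte genes was not tested. The cyclic nucleotide list as a whole had a median of 0.07 over 15 genes.

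The remaining lists lay nearer the median of all genes or held few tested genes. Notch genes had a median of -0.27 over 7 tested; Heyl, a Notch target of mural cells, was at 133, 388, 295 and 148 CPM with no separation of genotypes. Calcium and contraction genes had a median of 0.00 over 22, and Cacna1c, the L-type calcium channel, was at 3285, 3976, 3441 and 3098 CPM. Basement membrane genes had a median of -0.19 over 10, within which Lama2, laminin alpha 2, was higher in both RPC animals (222, 268, 516 and 618 CPM, log2 fold change 1.07 ± 0.33 SE, adjusted p = 0.472, edgeR). Medians were -0.29 over 4 PDGF genes, 0.02 over 7 angiopoietin and VEGF genes, -0.50 over 5 inflammatory genes, -0.03 over 4 cell death genes, 0.17 over 17 transcriptional regulators and 0.22 over 6 cell cycle genes. Over all alternatives the PDGF median ran from -0.80 to 0.76, the Notch median from -0.47 to 0.21, the angiopoietin and VEGF median from -0.28 to 0.09, the calcium median from -0.27 to 0.27, the cell death median from -0.34 to 0.22 and the inflammatory median from -0.63 to -0.09.

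**Figure D5:**
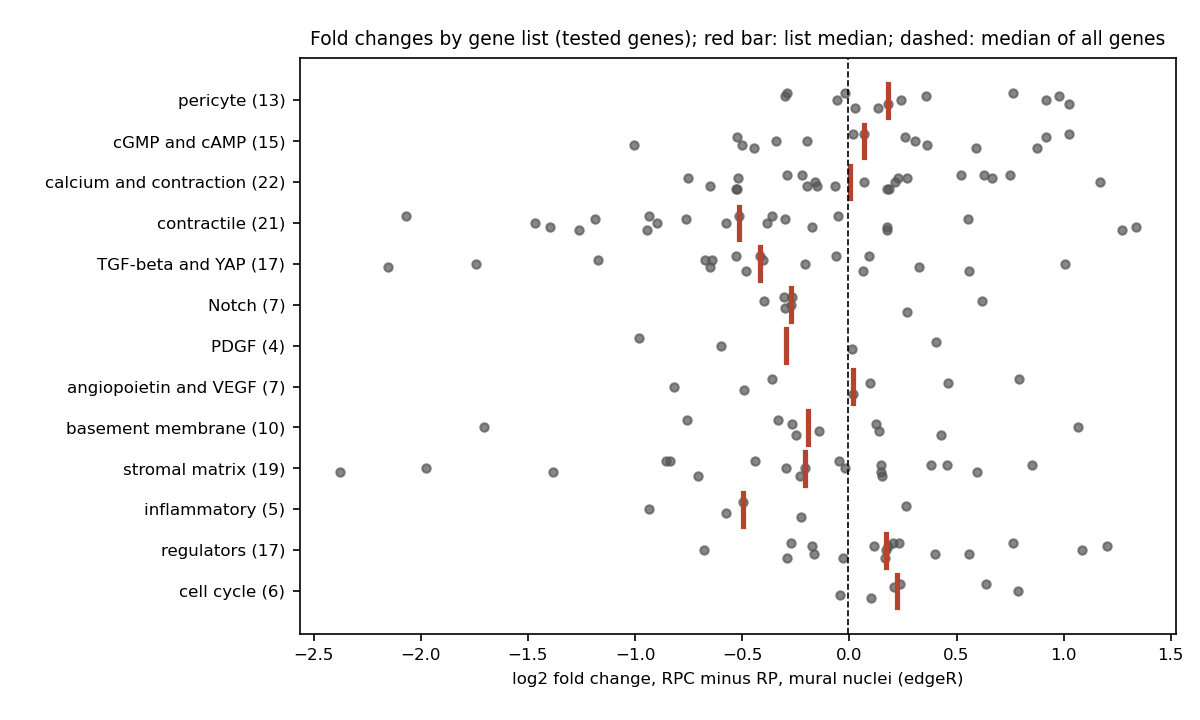
Log2 fold change of RPC minus RP in mural nuclei for each tested gene (points) by list (rows, number tested in brackets); red bars are list medians and the dashed line is the median of all 3213 genes. Contractile genes sit mostly left of the line with a median of -0.52, pericyte genes mostly right of it with a median of 0.18, and no single point passed an adjusted p of 0.05.

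Summed endothelial markers were lower in both RPC animals than in both RP animals, with no test, whereas Flt1 among them was highest in RPC1. The 13 endothelial markers summed to 1611, 1674, 1315 and 858 CPM in mural nuclei, against 7210 to 9616 CPM in endothelial-gated nuclei. Erg, an endothelial transcription factor, was at 241, 222, 94.7 and 83.0 CPM in mural nuclei and at 246, 156, 207 and 171 CPM in nuclei in no gate (log2 fold change -1.51 ± 0.34 SE, adjusted p = 0.472, edgeR). Only 4 mural nuclei held more endothelial than mural gene counts, and without them edgeR again called 0 genes, with 250 at an unadjusted p under 0.05. The part of endothelial RNA in the other values was not tested.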

How the data were processed

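Nuclei from fresh-frozen tumors were fixed, barcoded by split pooling (Parse Evercode) and sequenced. The authors deposited, per animal, a matrix of raw transcript counts per nucleus and gene, aligned to GRCm39 per the labels, and those counts were used as deposited. Kept nuclei had at least 300 transcripts, at most 10% mitochondrial counts and at most 12000 genes. Mural nuclei met the rule given above. No doublet caller was run: the nuclei above 4 times the median depth of their animal (7 of 119) and those with more endothelial than mural counts were left out as alternatives. The members and the 23 gene lists were chosen with earlier results of these data known. A further 9 metadata columns per nucleus were not used. Counts were summed per animal and class, and CPM is relative to that sum. RPC and RP were compared with edgeR's quasi-likelihood test (edgeR 4.0.16, legacy fit, TMM scaling, filterByExpr with a count minimum of 10), and p-values were adjusted by Benjamini-Hochberg over the 3213 genes that passed the filter in mural nuclei. Interaction fits held animal and class as terms on the same genes. DESeq2 1.42.0 was an alternative. SE is the fold change divided by the root of the F statistic. The scripts were tested on simulated data. The mural share was compared by two-sided exact permutation over animals. Animals are separate mice, but p-values rest on 2 per genotype. Named genes were the selection genes, Casp8, Rb1 and Trp53, all called genes, the 4 highest of each list and any called, the 10 highest ratios, and the 5 higher and 5 lower genes of smallest p with separate genotypes; others are marked as chosen later. Some genes that met this rule are not reported here. List genes named for an absence of counts, for the split or beside a list median were also chosen after their values were seen. Gene positions are from GENCODE vM39 (GRCm39).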

Additional observations from a re-analysis of the deposited data

Results flagged for a closer look

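The difference between RPC and RP differed between mural nuclei and nuclei in no gate for Nhs, by -2.23 on the log2 scale in the edgeR interaction fit (adjusted p = 0.0158, 2 animals per genotype). Mural nuclei averaged 875 CPM in RP and 515 CPM in RPC, with overlapping animals, and nuclei in no gate averaged 47.3 CPM in RP and 132 CPM in RPC, with both RPC animals higher. The call was lost under both stricter definitions of mural nuclei, as given above. Groups of 2 animals are too small for a test of single outlying animals.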

How the results depend on the processing

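Each comparison was recomputed under the alternatives named here. The RPC minus RP difference in the mural share (-0.0160 points) became 0.00948 at a marker share of 0.3%, 0.00361 without nuclei above 4 times the median depth and 0.00443 in nuclei thinned to 1000 transcripts, and ran from -0.0661 to 0.0341 with 1 animal left out. The smooth muscle-leaning share (-0.367 points) became 1.79 with at least 4 markers and 3.08 without the deep nuclei, and ran from -8.53 to 7.80 with 1 animal left out. Calls in mural nuclei (0) were 3 in DESeq2, 45 with no filter on low counts, and 14 to 59 with 1 animal left out. Interaction calls against nuclei in no gate (1) were 0 at a marker share of 0.3% and 0 with at least 4 markers, and 2 to 33 with 1 animal left out. Against fibroblast-gated nuclei (0) leave-outs gave 0 to 25 calls, and against endothelial-gated nuclei (0) 0 to 25. The cause was not tested. With the replicate number as a block, 0 genes were called and 204 had an unadjusted p under 0.05 (251 without the block); same-numbered animals did not deviate together (correlation -0.03 over 3213 genes), and the numbers name separate mice. RLE scaling gave 0 calls, with 252 genes at an unadjusted p under 0.05. Of the list medians under the alternatives, 79 moved by less than the SD over left-out animals and 33 by more. Among the latter, the PDGF, Notch, angiopoietin and VEGF, calcium and cell death medians changed sign. The matrix median changed sign only in alternatives that moved it by less than this SD. Of 33 single-gene fold changes, 3 changed sign: Cald1 with 1 animal left out (-1.28 to 0.0108, the highest without RP2), Mylk without deep nuclei (-0.0513) and with 1 animal left out (-0.0672 to 0.46, the lowest without RP1), and Flt1 (0.02 as reported) without nuclei of more endothelial counts (-0.30), without deep nuclei (-0.52), with the replicate block (-0.0745), in pericyte-leaning nuclei, chosen after seeing the data (-0.20), and with 1 animal left out (-0.73 to 0.51, below 0 without RP2 or RPC1). With 108148 to 190088 mural transcripts per animal, genes under 15.8 to 27.7 CPM were not measurable.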
